A study of Mus musculus with 72 samples.

Results

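The comparison described here is that of doxycycline (DOX) against no drug in the control line at postnatal day 14 (P14). It takes in 6 of the 72 libraries of the series. They are the 3 control libraries whose count columns end in the P0 to P14 drug code and the 3 whose columns end in P14 alone. By their labels both groups carry Omp-IRES-tTA, and no tetO target construct is named. That allele makes the tetracycline transactivator (tTA) from the Omp gene, which is active in mature olfactory sensory neurons. The label of the DOX group gives the drug from P0 to P14, and the other group had none. Every library is total RNA of olfactory epithelium, which lines the upper nasal cavity and detects odours, from mice of the same age. The labels state neither the dose and route of the drug nor whether the libraries come from separate animals, so p-values measure only the spread between libraries of a group, estimated over all groups of the series.

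Doxycycline is a tetracycline antibiotic. In mouse genetics it is used as a switch, because tTA that has bound it no longer sits on its DNA target. As an antibiotic it acts on bacterial ribosomes, and it is known to inhibit the related mitochondrial ribosome and matrix metalloproteinases as well. In a control line that carries the transactivator but no target gene, the drug course can therefore be compared without switching a target. Anything else that differs between the groups, such as the separate runs of title numbers described under processing, cannot be told apart from the drug. The olfactory epithelium holds mature neurons, supporting (sustentacular) cells and basal stem cells, with Bowman glands beneath it. Those glands and the neighbouring nasal glands secrete odorant-binding proteins, lipocalins and antimicrobial proteins into the mucus.

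The 6 libraries had about 13390000 to 19720000 reads each, of which 22.8% to 30.0% were assigned to genes, leaving about 3092000 to 5269000 gene counts. A set of 13 abundant predicted genes of the Gm10800 type took 9.06%, 15.2% and 7.37% of gene counts without DOX and 11.2%, 17.1% and 17.4% with it, which overlapped. With those genes left out 10 genes were called, in place of the 12 given below. Markers of the labelled tissue were detected: all 22 of mature neurons, all 12 of horizontal basal cells and 17 of 18 sustentacular markers passed the filter on low counts. Passing the filter does not single out this tissue, since all 13 skeletal muscle and all 15 cartilage markers passed it too. Log2 expression correlated at r = 0.974 to 0.979 between libraries of the same group and at 0.969 to 0.979 across the groups, over 22144 genes that are not independent replicates. Xist, expressed from the inactive X chromosome of females, stood at 40.0, 4.73 and 336 CPM (gene counts scaled to the library total) without DOX and at 8.29, 379 and 108 CPM with it. The Y-linked Ddx3y stood at 52.1, 56.1 and 12.7 CPM without DOX and at 56.9, 9.67 and 48.4 CPM with it. Several libraries of both groups held both transcripts, and the part of this mixture in the results was not tested.

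Omp and Fzd1 were compared between the groups as a check on the labels. Omp, the marker of mature neurons whose locus carries tTA, measured 1329, 1384 and 1514 CPM without DOX and 1373, 1444 and 1072 CPM with it. Its log2 fold change was -0.12 and it was not called (edgeR quasi-likelihood test, Benjamini-Hochberg adjusted p = 1). Fzd1, the Wnt receptor altered in the other lines of the series, measured 25.9, 20.9 and 23.3 CPM without DOX and 28.0, 22.5 and 20.7 CPM with it, and was not called either (log2 fold change 0.03, adjusted p = 1). The groups overlapped in both genes. Omp at P14 stood at 28.1 to 63.6 CPM in the ectopic Fzd1 line and at 1174, 3018 and 2475 CPM in the Fzd1-lacZ line. Omp thus matches between the groups compared here, but its level does not show which Omp allele they carry.

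With an adjusted p under 0.05, 12 of 22144 genes tested were called, which is 0.0542%, and 779 genes had an unadjusted p under 0.05. Of the 12, 1 was higher with DOX (Btg2) and 11 were lower. The 11 genes lower with DOX were 5 that encode secreted proteins (Mup5, Obp1b, Gm14743, 5430402E10Rik and Crisp1), a metallothionein (Mt2), a glucocorticoid-induced regulator (Tsc22d3), the coiled-coil gene Ccdc107 and 3 predicted transcripts (Gm37376, Gm20417 and Gm26825). The rule for named genes takes in Obp1b, Mup5, Btg2, Ccdc107, Crisp1, Tsc22d3 and Mt2; the other 5 called genes carry predicted or clone names and are named here after their values were seen. In all 12 the 3 libraries of one group lay beyond the 3 of the other. Over all genes tested, 7.38% had all DOX libraries below the others and 7.31% had them all above, and the median log2 fold change was 0.002.

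The count depended on single libraries: it was 7 without the first no-DOX library, 6 without the second DOX library and 5, none of them higher, without the third DOX library. Mup5, Obp1b, Gm14743, Gm37376 and Gm20417 passed whichever of the 6 libraries was left out, and Btg2 passed in each case but 1. Ccdc107 was lost in 3 of the 6 cases, Crisp1 in 4, and Tsc22d3, Gm26825 and 5430402E10Rik in 5 each. Mt2 was lost in every one of them. The count was 69 with no filter on low counts and 79 when only these 6 libraries were fitted, where the spread is estimated from these libraries alone.

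**Figure D1:**
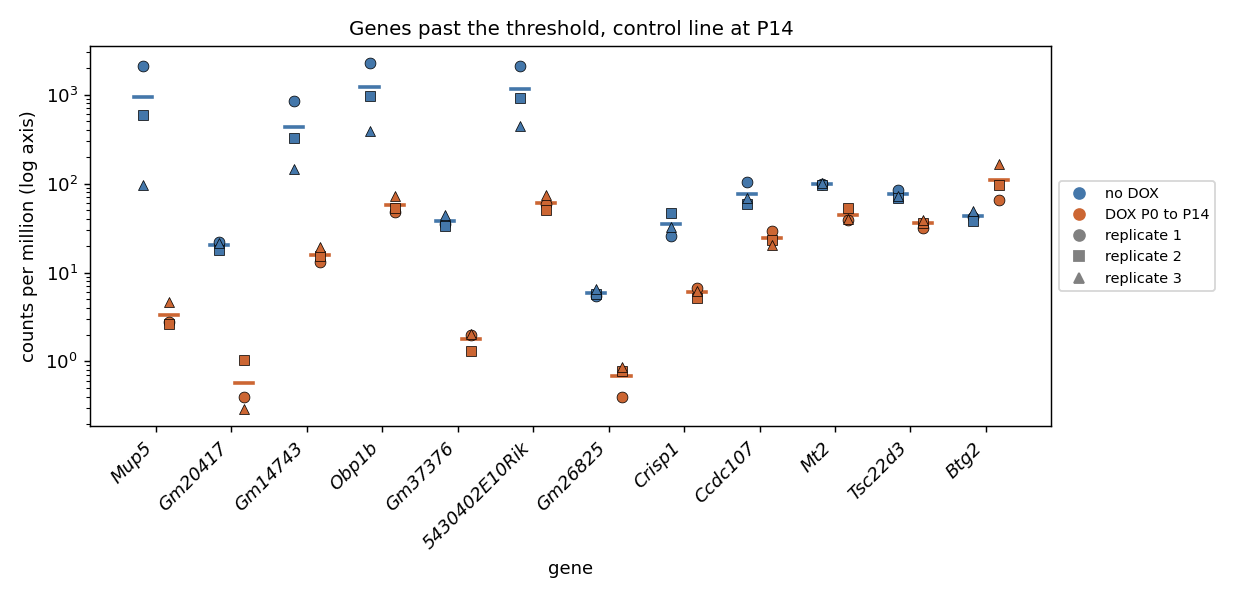
CPM (log axis) of the 12 genes past the threshold in the 3 control libraries without DOX (blue) and the 3 with DOX (orange) at P14; marker shapes give the replicate and bars the group mean. Each gene's groups are separate, with Btg2 the one gene higher with DOX.

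The odorant-binding protein cluster on the X chromosome held 3 of the called genes. It holds small secreted lipocalins that carry hydrophobic odorants in nasal mucus, and 9 genes of the count table lie there, from Gm14744 to Gm14743 (chrX:77864758-78245921, mm10), of which 6 passed the filter. To show how alike the members are, the bases just before each annotated start are printed from RefSeq (GRCm38.p6), 5′ to 3′ on the gene's strand, for the 5 members that matched by symbol. Gm14744 (chrX:77864508-77864757, plus strand) and 5430402E10Rik (chrX:77925063-77925312, minus strand) had 248 of 250 bases in common, and capitals mark the 2 positions that differ:
Gm14744: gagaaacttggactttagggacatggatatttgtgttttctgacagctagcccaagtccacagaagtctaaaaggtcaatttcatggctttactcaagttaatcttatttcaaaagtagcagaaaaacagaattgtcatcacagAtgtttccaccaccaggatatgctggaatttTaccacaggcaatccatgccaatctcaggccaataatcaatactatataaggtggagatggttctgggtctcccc
5430402E10Rik: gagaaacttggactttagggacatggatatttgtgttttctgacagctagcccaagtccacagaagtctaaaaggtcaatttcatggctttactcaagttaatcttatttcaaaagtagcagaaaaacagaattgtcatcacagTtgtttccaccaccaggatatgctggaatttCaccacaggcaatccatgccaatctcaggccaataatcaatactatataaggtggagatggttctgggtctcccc

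Obp1b (chrX:78186567-78186776, plus strand) and Gm14743 (chrX:78245962-78246171, minus strand) shared a run of 210 bases without a difference, printed once:
Obp1b and Gm14743: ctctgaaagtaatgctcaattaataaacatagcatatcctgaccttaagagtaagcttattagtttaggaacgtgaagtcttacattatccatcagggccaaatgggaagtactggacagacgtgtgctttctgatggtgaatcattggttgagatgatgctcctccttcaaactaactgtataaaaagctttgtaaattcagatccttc

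Obp1a is less like either pair. Over windows of up to 250 bases, with 219 bases aligned in each case, 68.5% of aligned bases were identical to Obp1b and 62.6% to Gm14744. Of its window, the 150 bases next to the start are printed (chrX:78091375-78091524, minus strand):
Obp1a: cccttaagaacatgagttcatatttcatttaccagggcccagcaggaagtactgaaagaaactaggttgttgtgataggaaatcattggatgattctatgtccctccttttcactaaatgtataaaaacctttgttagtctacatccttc

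The likeness extends into the transcripts. Of the 748 words of 50 bases in the annotated Obp1b transcript, 550 also occur in Gm14743, and of the 751 in Gm14744, 458 also occur in 5430402E10Rik. Reads from such stretches could be split between or lost from the members of a pair, so values within each pair are uncertain, whereas Obp1a shared no such word with the other 4.

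Obp1b measured 2258, 972 and 389 CPM in the 3 libraries without DOX and 48.4, 53.6 and 72.6 CPM in the 3 with it. The no-DOX libraries were spread over several-fold and the DOX libraries lay close together below them. Obp1b fell by 4.38 on the log2 scale (SE 0.69, adjusted p = 0.000327), from a mean of 1206 ± 956 to 58.2 ± 12.7 CPM (SD, n = 3 each, edgeR). In bulk RNA, fewer gland cells and less RNA per gland cell cannot be told apart, and this holds for each gland gene below.

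Gm14743 measured 840, 322 and 145 CPM without DOX and 13.0, 15.4 and 19.2 CPM with it, a fall of 4.79 on the log2 scale (SE 0.69, edgeR adjusted p = 6.196e-05). 5430402E10Rik measured 2090, 907 and 447 CPM without DOX and 58.4, 50.7 and 74.6 CPM with it, and fell by 4.23 (SE 0.91, edgeR adjusted p = 0.0353). Both followed the pattern of Obp1b, with the first no-DOX library highest and the third lowest. Obp1a measured 4686, 2049 and 1006 CPM against 173, 162 and 195 CPM, also without overlap, but missed the threshold (log2 fold change -3.87, SE 0.87, edgeR adjusted p = 0.0622). Gm14744 measured 4671, 2175 and 965 CPM against 170, 151 and 264 CPM (log2 fold change -3.74, SE 1.07, adjusted p = 0.393). The sixth tested member, the pseudogene Gm14750, had means of 7.06 and 0.503 CPM and was not called (adjusted p = 0.34).

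Major urinary proteins are lipocalins of the same structural kind, which bind pheromones and are made in nasal and lacrimal glands as well as liver. Mup5 (chr4:61831319-61835233, minus strand) measured 2099, 598 and 96.7 CPM without DOX and 2.76, 2.61 and 4.66 CPM with it. It had the largest fold change of the 12 called genes, a fall of 8.15 on the log2 scale (SE 1.33, edgeR adjusted p = 0.000383). The no-DOX libraries differed among themselves by more than for any member of the odorant-binding cluster named above, and none came near the DOX libraries. Mup4 measured 675, 185 and 46.7 CPM against 2.96, 2.35 and 11.1 CPM, but was not called (log2 fold change -5.87, SE 1.51, adjusted p = 0.212). Of the 876 words of 50 bases in Mup5, 150 occur in other annotated genes, most often Mup4.

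Crisp1 (chr17:40293758-40319207, minus strand), a cysteine-rich secretory protein best known from the epididymis, measured 25.7, 46.6 and 32.1 CPM without DOX and 6.71, 5.23 and 6.12 CPM with it. It fell by 2.51 on the log2 scale (SE 0.51, edgeR adjusted p = 0.0176). Here the no-DOX libraries did not follow the order seen for Obp1b, since the second was highest.

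The list of 24 tested Bowman gland and nasal secretory genes, chosen with earlier results of these data known, is described by its counts. In it 0 were called higher and 2 lower (Mup5 and Obp1b), against 0.00452% higher and 0.0497% lower over all genes. The median log2 fold change was -0.51 against 0.002 over all genes tested. All 24 fold changes were negative, from -8.15 to -0.03, and 16 of the 24 (66.7%) had every DOX library below every other, against 7.38% of all genes. Leaving out the third DOX library moved the list's median to -1.52. Together the listed genes made up 3.21%, 2.36% and 1.97% of gene counts without DOX and 1.09%, 1.03% and 1.67% with it. In percent of summed TPM the difference of the means was smaller, at -0.6725 percentage points against -1.252 in counts. The count shares did not overlap, with means of 2.51 ± 0.63% and 1.26 ± 0.35% (SD, n = 3 each; exact permutation test, two-sided, p = 0.1, the smallest that 3 against 3 can give, adjusted p = 0.22 over 11 families). The 95% Wilson half-width of any one library's share was at most 0.0175 percentage points, which covers counting error only.

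Within the list the size of the difference varied widely. Lcn11, a lipocalin, measured 1730, 814 and 422 CPM against 103, 56.2 and 141 CPM (log2 fold change -3.31, adjusted p = 0.26). The odorant-binding lipocalin Obp2a, from a cluster on chromosome 2, measured 1377, 1835 and 1342 CPM against 371, 455 and 821 CPM (log2 fold change -1.47, adjusted p = 1). Both were separated between the groups without passing the test. Bpifa1, an abundant airway lining protein, measured 7649, 6873 and 6648 CPM against 5204, 4866 and 5212 CPM (log2 fold change -0.47, adjusted p = 1). Bpifb9b, of the same BPIF family, overlapped fully, at 3113, 1562 and 462 CPM against 722, 606 and 3699 CPM (log2 fold change -0.03). In the no-DOX group 11 of the 24 genes, Obp1b and Bpifb9b among them, were ordered with the first library highest and the third lowest.

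**Figure D2:**
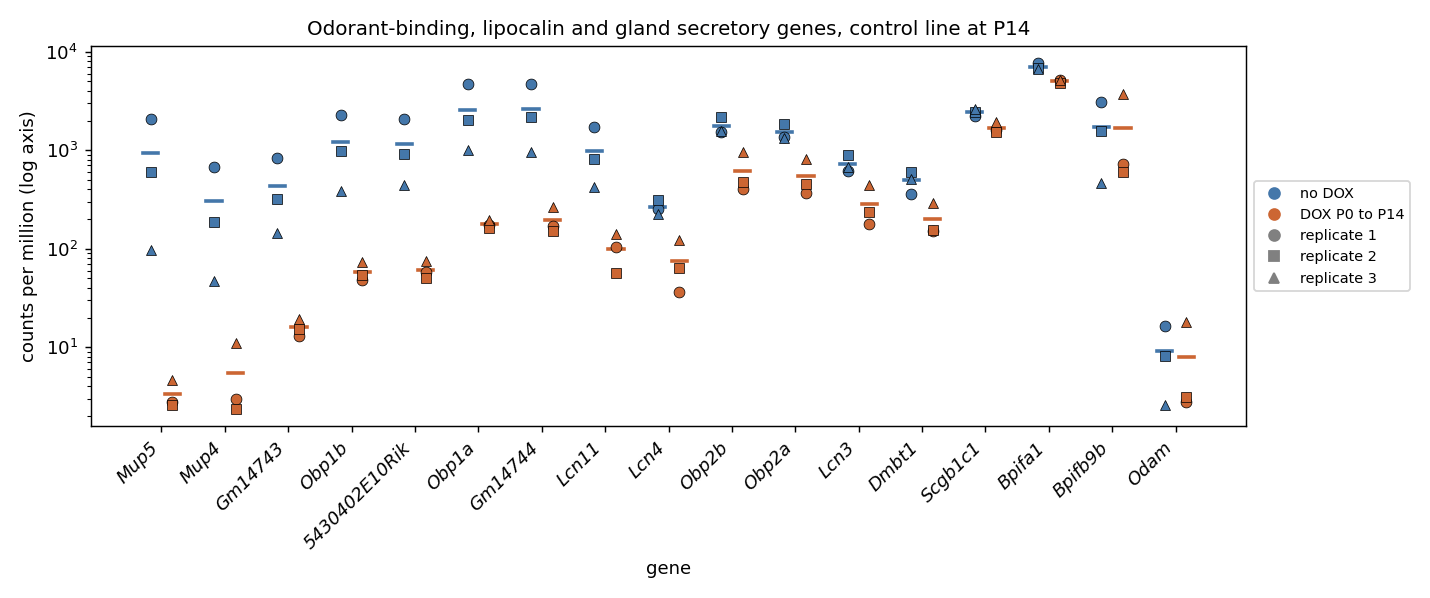
CPM (log axis) of 17 odorant-binding, lipocalin and gland secretory genes in each control library at P14, without DOX (blue) and with DOX (orange); bars are group means. The groups are apart from Mup5 to Bpifa1, while Bpifb9b and Odam overlap.

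Related gene lists held no called member. The epithelial defence list, antimicrobial proteins of mucus that overlap the secretory list, had 0 called of 23 tested and a median log2 fold change of -0.33, with 6 members (26.1%) separated below, against 7.38% of all genes. Ltf, which encodes the iron-binding lactoferrin, measured 570, 356 and 295 CPM against 259, 149 and 157 CPM (log2 fold change -1.11, adjusted p = 1). The tissue kallikrein gene Klk1 is in neither this list nor that of xenobiotic metabolism, and was picked with the data already in view. It measured 307, 75.6 and 42.2 CPM against 14.8, 11.8 and 15.2 CPM and also did not pass (log2 fold change -3.35, adjusted p = 0.182). The 13 tested Klk genes had a median log2 fold change of -0.54, from -3.35 to 0.58, with 0 called and 3 separated below. Of 34 tested genes of xenobiotic metabolism, 0 were called. The list's median was -0.18 and 12 of its 34 members (35.3%) were separated below.

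Glucocorticoid-responsive genes gave the other group with called members. Glucocorticoids act through a nuclear receptor that binds DNA, and the list gathers genes this receptor commonly raises. Tsc22d3 (chrX:140539528-140600659, minus strand), the glucocorticoid-induced leucine zipper, measured 85.4, 68.5 and 73.4 CPM without DOX and 32.0, 36.3 and 39.3 CPM with it, and fell by 1.09 on the log2 scale (SE 0.23, edgeR adjusted p = 0.0244). Mt2 (chr8:94172664-94173568, plus strand), a metallothionein that binds zinc and copper and responds to metals and glucocorticoids, measured 100.1, 97.3 and 101 CPM without DOX and 39.3, 53.3 and 39.6 CPM with it. It fell by 1.18 (SE 0.25, edgeR adjusted p = 0.0244). In both genes the libraries of each group lay closer together than those of Obp1b and Mup5 without DOX.

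Mt1, the neighbouring metallothionein gene, measured 174, 163 and 182 CPM against 83.1, 98.8 and 80.7 CPM without passing (log2 fold change -0.98, adjusted p = 0.0832). Of the 12 genes in the list 2 were called lower and 0 higher, against 0.0497% lower and 0.00452% higher over all genes, 7 (58.3%) had all DOX libraries below the others, against 7.38%, and the median log2 fold change was -0.41. Dusp1, a phosphatase gene that is also in the immediate early list, stood the other way with overlap, at 30.8, 32.8 and 41.8 CPM against 33.8, 62.5 and 85.1 CPM (log2 fold change 0.76, unadjusted p = 0.00315, adjusted p = 0.751). Fkbp5 and Per1, which glucocorticoids also induce, overlapped between the groups: Fkbp5 measured 23.9, 21.6 and 24.1 CPM against 21.3, 20.1 and 27.4 CPM (log2 fold change -0.03). Tsc22d3 and Mt2 stood close to the threshold: leaving out 1 library at a time, the highest adjusted p was 0.391 for Tsc22d3, without the first no-DOX library, and 0.377 for Mt2, without the third DOX library.

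Btg2 was the single gene that rose. It encodes an antiproliferative protein, induced early by growth signals and by p53. Btg2 (chr1:134075170-134079120, minus strand) measured 42.6, 37.5 and 48.6 CPM without DOX and 65.4, 95.4 and 166 CPM with it, and rose by 1.33 on the log2 scale (SE 0.21, edgeR adjusted p = 0.000327). The no-DOX libraries were close together and the DOX libraries were spread, with the third highest. Without that library the log2 fold change was 0.89 and the adjusted p 0.174.

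Immediate early genes, which switch on within minutes of a stimulus, held no called member. Fos, a subunit of the AP-1 transcription factor, measured 5.13, 3.38 and 8.02 CPM without DOX and 14.6, 24.1 and 58.3 CPM with it, but did not pass (log2 fold change 2.48, SE 0.56, edgeR adjusted p = 0.0602). The zinc finger gene Egr1 measured 3.34, 6.08 and 3.54 CPM against 6.32, 16.2 and 25.6 CPM (log2 fold change 1.89, adjusted p = 0.14). Nr4a1, an orphan nuclear receptor gene, overlapped, at 8.47, 12.2 and 9.91 CPM against 11.9, 19.1 and 42.3 CPM (log2 fold change 1.24, adjusted p = 0.85). Of the 16 genes in the list 0 were called, and 8 had an unadjusted p under 0.05 and a positive fold change, where 779 of all 22144 genes had such a p in either direction. In 3 (18.8%; Fos, Fosb and Egr1) all DOX libraries lay above the others, against 7.31% of all genes, and the median was 0.48. The list's share of gene counts overlapped between the groups, at 0.0220% to 0.0248% without DOX and 0.0214% to 0.0470% with it (exact permutation test, p = 0.4, adjusted p = 0.489). The DOX library highest for Btg2 was also highest for Fos, Egr1, Nr4a1, Fosb, Egr2, Atf3, Dusp1, Junb, Ier2 and Arc. It was not highest for Jun, Egr3 or Npas4. The list summed to 222.1, 350.5 and 491.6 CPM with DOX, that library highest, and to 222.7 to 242.2 CPM without DOX. With Jun left out the sums were 140, 222.7 and 365.7 CPM with DOX and 143.2 to 154.5 CPM without it. Npas4 and Arc, early genes of neuronal activity, had log2 fold changes of -0.68 and -0.16, neither called.

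**Figure D3:**
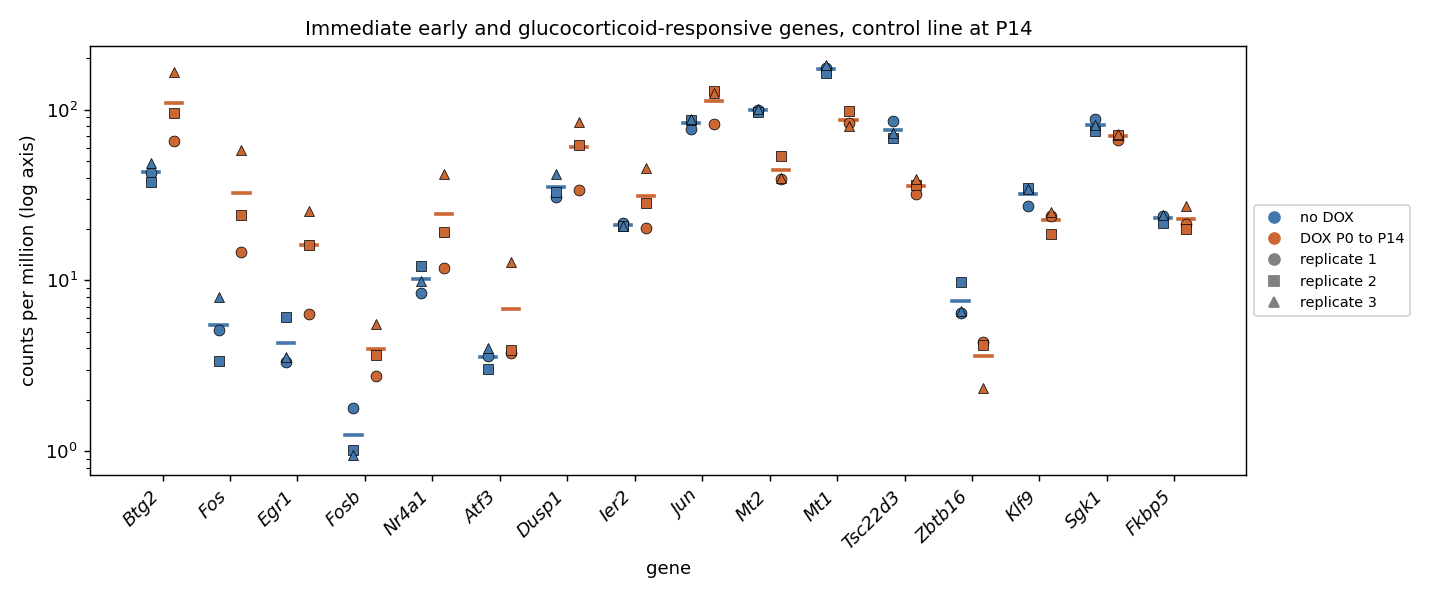
CPM (log axis) of Btg2, 8 immediate early genes and 7 glucocorticoid-responsive genes in each control library at P14, without DOX (blue) and with DOX (orange); bars are group means. The third DOX library (triangle) is highest for Btg2, Fos, Egr1 and Nr4a1, while Mt2, Mt1 and Tsc22d3 are lower in all 3 DOX libraries.

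The bases before the starts of Mt2, Btg2 and Fos are printed because these genes lead the groups just described. The core of the metal response element is TGCRCNC, where R is A or G, and the looser TGCNCNC was searched here. In Mt2 (chr8:94172368-94172617, plus strand) capitals mark 5 matches to TGCNCNC on either strand, of which TGCTCTC and GGGAGCA do not match the core:
Mt2: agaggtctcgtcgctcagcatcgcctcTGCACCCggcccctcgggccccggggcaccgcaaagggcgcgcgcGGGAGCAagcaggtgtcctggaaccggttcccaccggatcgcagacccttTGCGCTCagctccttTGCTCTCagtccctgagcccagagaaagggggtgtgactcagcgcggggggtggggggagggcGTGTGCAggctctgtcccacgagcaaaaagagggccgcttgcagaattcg

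In Btg2 (chr1:134079156-134079405, minus strand) capitals mark TGACGTCA, the cyclic AMP response element, and in Fos (chr12:85473740-85473889, plus strand) they mark the shorter TGACG, which the longer motif contains:
Btg2: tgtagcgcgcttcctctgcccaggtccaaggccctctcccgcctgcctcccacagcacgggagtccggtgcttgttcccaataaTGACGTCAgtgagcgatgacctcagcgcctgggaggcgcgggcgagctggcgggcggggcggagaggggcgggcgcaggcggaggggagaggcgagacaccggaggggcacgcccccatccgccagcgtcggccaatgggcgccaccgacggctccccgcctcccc
Fos: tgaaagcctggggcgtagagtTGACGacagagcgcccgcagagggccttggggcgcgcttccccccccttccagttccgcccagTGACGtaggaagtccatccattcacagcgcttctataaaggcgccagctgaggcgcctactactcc

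Among all 32851 RefSeq windows of 250 bases, 44.4% held TGCNCNC, 1.55% held TGACGTCA and 17.8% held TGACG on either strand. Of the 16 windows of the 12 immediate early genes that matched, 11 held TGACG and 1 held TGACGTCA. The glucocorticoid response element was in 0.387% of all windows. It was in 2 of the 20 windows of the 11 matched glucocorticoid-responsive genes, those of Mt1 and Sgk1, and in none of the 10 windows of the 8 matched called genes. These matches describe the letters only.

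The remaining called genes have less certain counts. Ccdc107 (chr4:43492900-43495921, plus strand) measured 104, 58.4 and 68.9 CPM without DOX and 29.4, 23.0 and 20.4 CPM with it, and fell by 1.66 on the log2 scale (SE 0.30, edgeR adjusted p = 0.00212). Its 5′ end overlaps Rmrp, the RNA of an RNA-processing enzyme on the opposite strand, by 159 bases, and Rmrp itself is listed at 0 in the count table in all 6 libraries but at 3487 to 5715 TPM in the deposited TPM table. In the deposited TPM values the Ccdc107 difference was smaller, at -0.75 on the log2(TPM + 1) scale (limma, adjusted p = 1).

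Gm37376 (chr19:5801941-5802393, plus strand) lies wholly within Malat1, an abundant nuclear RNA on the opposite strand. It measured 35.2, 33.4 and 43.9 CPM without DOX and 1.97, 1.31 and 2.04 CPM with it, and fell by 4.38 on the log2 scale (SE 0.70, edgeR adjusted p = 0.000327). Malat1 measured 6955, 8640 and 8663 CPM against 9032, 8138 and 9986 CPM and was not called (log2 fold change 0.16). Gm37376 was thus 0.387% to 0.506% of the Malat1 level without DOX and 0.0161% to 0.0219% with it.

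Gm26825 (chr5:5781530-5783636, plus strand) overlaps the pseudogene Gm15459 on the opposite strand over 1941 bases. It was 1.78% to 1.92% of the Gm15459 level without DOX and 0.105% to 0.294% with it, and fell by 3.12 (SE 0.63, edgeR adjusted p = 0.0191), while Gm15459 was not called. Gm20417, for which the annotation used gives no position, measured 22.3, 17.9 and 21.5 CPM against 0.395, 1.05 and 0.291 CPM and fell by 5.12 (SE 0.88, edgeR adjusted p = 0.000923). The libraries are stranded, but the strand setting of the counting is not given in the sources used here, and how completely strands were told apart in each library was not tested. Among the 657 tested genes that lie opposite a gene at least 20 times more abundant, 2 were called lower and 0 higher. Among the other 21487 genes tested, 9 were called lower and 1 higher. The class was set after the values of Gm37376 and Gm26825 were seen. These are its 2 called members, so that count cannot tell whether such genes are called more often. In the class 10.35% had all DOX libraries below the others, against 7.29% of the other genes tested.

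Lists of the epithelium's own cell types held no called gene. The 22 mature neuron markers had a median log2 fold change of -0.02, with 0 separated below and 2 above, and values from -0.19 to 0.30. The 922 odorant receptors tested had a median of -0.02, with 51 (5.53%) separated below and 27 (2.93%) above. They made up 0.404%, 0.426% and 0.471% of gene counts without DOX and 0.3995%, 0.460% and 0.354% with it, which overlapped (exact permutation test, p = 0.4, adjusted p = 0.489). Sustentacular markers had a median of -0.07 over 17 genes, with none separated in either direction, and neuronal progenitors of -0.01 over 14 genes.

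Markers of horizontal basal cells, the reserve stem cells of the epithelium, held no called gene. Their share of gene counts was 0.0656 ± 0.0081% without DOX and 0.0501 ± 0.0016% with it, without overlap (SD, n = 3 each; exact permutation test, p = 0.1, adjusted p = 0.22). Krt15, a keratin of basal layers, measured 77.7, 38.5 and 28.3 CPM against 8.49, 13.1 and 17.5 CPM (log2 fold change -1.92, adjusted p = 0.225). Krt5, the keratin that defines these cells, measured 49.5, 36.5 and 37.3 CPM against 20.1, 25.9 and 30.3 CPM (log2 fold change -0.71, adjusted p = 0.862). All 12 markers had negative fold changes, 6 (50%) were separated below, against 7.38% of all genes, and the median was -0.41. Trp63, the transcription factor of these cells, overlapped at 29.0, 24.0 and 17.7 CPM against 13.6, 17.5 and 18.9 CPM.

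Markers of cells outside the epithelium proper also lay lower with DOX in several lists. The summed level of 10 endothelial markers was 92.2 to 111 CPM without DOX and 81.5 to 85.1 CPM with it, with 6 of 10 separated below, against 7.38% of all genes. For 16 macrophage markers it was 200 to 262 CPM against 167 to 175 CPM, and for 12 markers of olfactory ensheathing glia 494 to 598 CPM against 380 to 464 CPM. Fibroblast and matrix genes summed to 5322 to 6122 CPM against 4609 to 5102 CPM over 15 genes. In each of these lists 0 genes were called and no marker was at 0 in all 6 libraries. Their part in the gland and glucocorticoid results was not tested. The summed level of 13 neutrophil markers, 348 to 629 CPM against 209 to 330 CPM, was mostly that of Ltf, the lactoferrin gene given above as an epithelial defence gene. Without Ltf the neutrophil sum overlapped, at 53.1 to 65.5 CPM without DOX and 55.7 to 71.1 CPM with it. Skeletal muscle, bone, ciliated cell and lymphocyte markers overlapped between the groups.

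**Figure D4:**
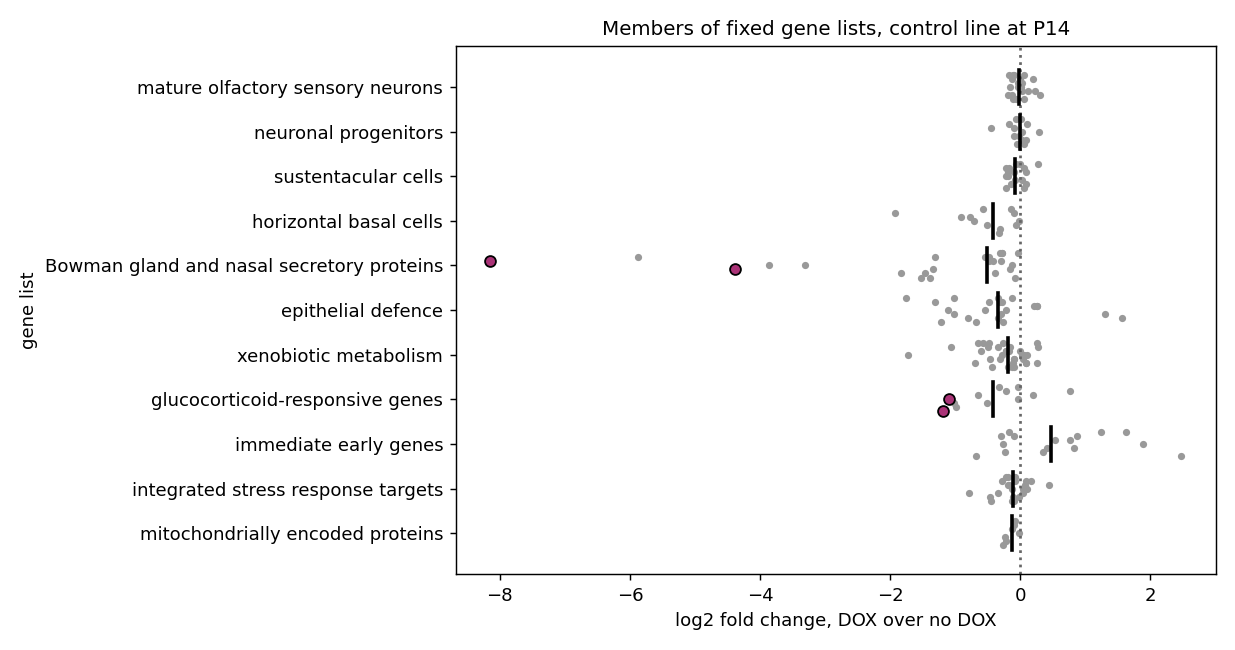
Log2 fold change (DOX over no DOX) of every tested member of 11 gene lists in the control line at P14; black bars are list medians, the dotted line is the median of all genes tested and outlined purple points passed the threshold. The called points are Mup5 and Obp1b among secretory genes and Tsc22d3 and Mt2 among glucocorticoid-responsive genes.

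Pathways that tetracyclines are known to touch held no called gene at this depth. The 13 mitochondrially encoded protein genes include 5 listed at 0 in all 6 libraries, and 7 passed the filter. All 7 had negative fold changes, from -0.26 to -0.02, with a median of -0.13, and their share of gene counts was 1.004 ± 0.05% without DOX and 0.90 ± 0.05% with it (SD, n = 3 each; exact permutation test, two-sided, p = 0.1, adjusted p = 0.22). Mitochondrial chaperones and proteases had a median of 0.0002 over 15 genes. The 24 tested targets of the integrated stress response, a translation-linked program that mitochondrial stress can start, had a median of -0.10. Of them 5 (20.8%) were separated below and 0 above, against 7.38% and 7.31% of all genes. The list summed to 1385 to 1423 CPM without DOX and 1211 to 1344 CPM with it, without overlap. Atf4, the transcription factor gene of this program, measured 187 to 211 CPM without DOX and 162 to 186 CPM with it (log2 fold change -0.16, adjusted p = 1). Of 20 tested matrix metalloproteinase and inhibitor genes 0 were called and the median was -0.12, with 12 negative and 8 positive. In 5 (25%) all DOX libraries lay below the others and in 0 above, against 7.38% and 7.31% of all genes. The list summed to 563.5 to 610.9 CPM without DOX and 529.6 to 556.5 CPM with it, without overlap. The inhibitor gene Timp4 measured 14.6, 12.5 and 10.85 CPM against 6.12, 6.80 and 6.70 CPM (log2 fold change -0.95, edgeR adjusted p = 0.34). Mmp9, a gelatinase gene, measured 25.9, 34.1 and 25 CPM against 34.7, 31.1 and 26.2 CPM, which overlapped.

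Younger mice with the control label give a drug contrast in other libraries, whose groups differ in Omp. At P10 Omp itself measured 46.9, 46.9 and 61.1 CPM without DOX and 865, 887 and 890 CPM with it, so the 2 groups there do not match in Omp as they do at P14. Without DOX Omp stood at 27.8 to 30.1 CPM at P3 and P7 as well. The labels give all these libraries the same genotype without stating zygosity, so a difference in genotype and an effect of the drug cannot be told apart in the counts of called genes at these ages. At P10, 11 genes (0.0497% of those tested) were called, 3 higher (0.0135%) and 8 lower (0.0361%). Omp was the only gene whose drug contrast differed between P14 and P10 by a test of the difference itself (1 gene called by edgeR, 0.00452%; 1071 genes at an unadjusted p under 0.05). For Obp1b that difference was -3.65 on the log2 scale (SE 0.94, adjusted p = 0.462), which did not pass.

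Obp1b measured 49.1, 125 and 19.3 CPM at P10 without DOX and 12.6, 15.9 and 87.2 CPM with it. These libraries overlapped, and all lay below the no-DOX libraries of P14. Mup5 measured 88.4, 158 and 12.2 CPM at P10 without DOX and 6.02, 14.2 and 65.7 CPM with it. Mt2 at P10 was higher in each DOX library, at 80.1, 74.1 and 77.3 CPM without DOX and 94.5, 100.2 and 100.5 CPM with it, the opposite order to P14. Mt2 was not called at P10 (adjusted p = 0.857), nor did its drug contrast differ between P14 and P10 by the test of the difference (-1.53 on the log2 scale, adjusted p = 0.191). At P7 Mt2 also lay higher with DOX without overlap, at 71.15 and 72.5 CPM against 118.2, 84.4 and 82.2 CPM. At P3 it lay lower with DOX without overlap, at 129 and 93.1 CPM against 22.85, 44.57 and 35.57 CPM. Gm37376, Gm20417 and Gm26825 were called lower at P10 too, with log2 fold changes of -5.35, -4.50 and -6.73. At P7 Gm37376 measured 23.99 and 3.58 CPM without DOX and 20.22, 31.05 and 35.73 CPM with it, which overlapped. Gm20417 at P7 also overlapped, at 8.451 and 1.492 CPM against 7.054, 15.82 and 11.03 CPM. At P3 both lay lower with DOX without overlap. Gm26825 lay lower with DOX at P7 and overlapped at P3. In Gm26825 all 3 DOX libraries at P10 were at 0 counts, so its fitted value is no bound. Ccdc107 lay lower with DOX without overlap at P3 and P10. At P7 Ccdc107 lay higher with DOX, at 28.9 and 26.85 CPM against 48.43, 48.45 and 49.41 CPM. Btg2 at P7 also lay higher with DOX without overlap, at 46.3 and 43.3 CPM against 78.1, 77.1 and 57.5 CPM. Its groups overlapped at P3 and were barely apart at P10, at up to 44.81 CPM without DOX and from 44.85 CPM with it.

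The mean of the drug contrasts at P3, P7 and P10 called 491 genes (2.22%), 339 higher (1.53%) and 152 lower (0.686%), and there Omp differed by 2.79 on the log2 scale. The split was 479 higher and 360 lower with DESeq2 size factors, and 181 higher and 306 lower with the share of Gm10800-type genes as a covariate. In the first library labelled control DOX P7, Fzd1 stood at 3.45 CPM against 37.6 and 31.5 CPM in the other DOX libraries of that age, which goes against its label, and without it 386 genes were called. Leaving out the second no-DOX P7 library lowered this count to 95, and each other no-DOX library of P3 or P7, or the third of either P10 group, also lowered it by over 1.5 times, to between 111 and 304.

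**Figure D5:**
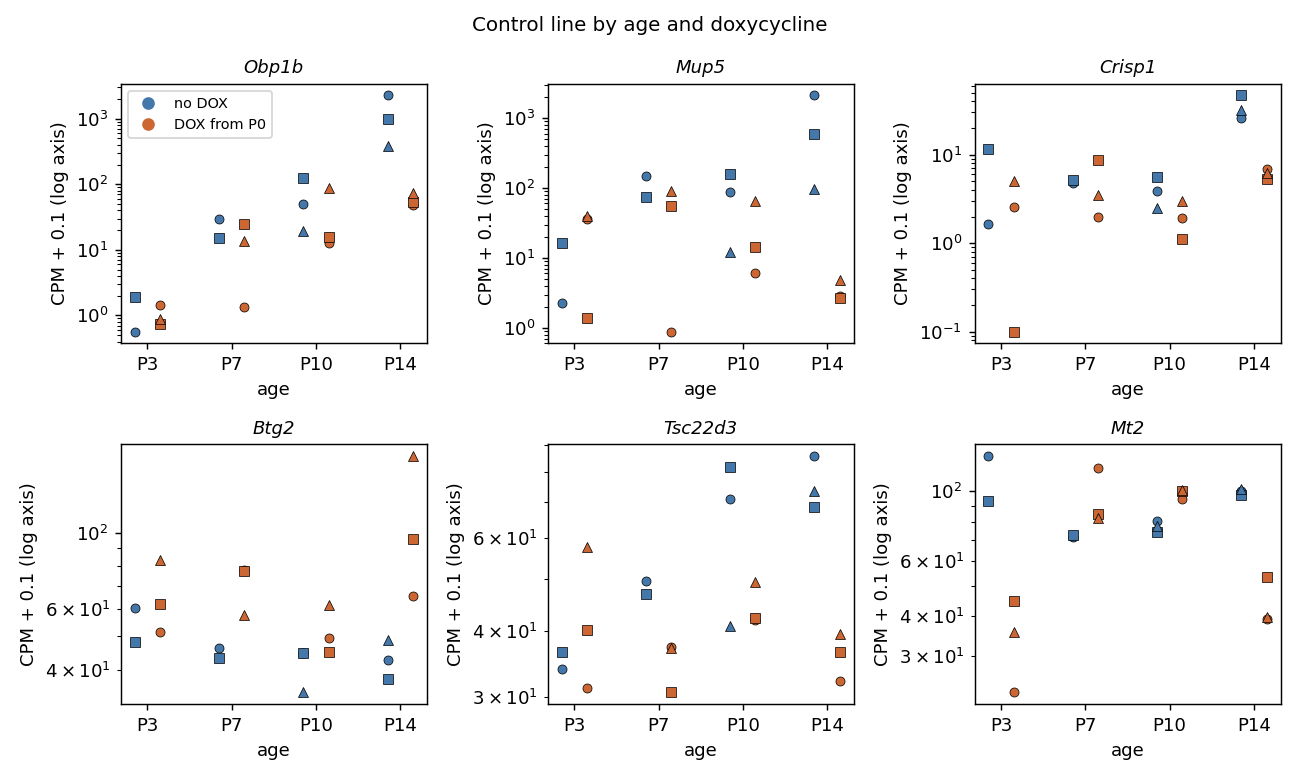
CPM plus 0.1 (log axis) of 6 called genes in control libraries at P3, P7, P10 and P14 without DOX (blue) and with DOX from P0 (orange); each point is a library, with 2 libraries without DOX at P3 and P7 and 3 in each other group. At P14 the groups are apart for every gene shown, whereas at P10 Obp1b and Mup5 overlap and Mt2 is higher with DOX.

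The ectopic Fzd1 line, which adds tetO-Fzd1-IRES-tdTomato, gives values at the same age and drug course, with an Omp level of 28.1 to 63.6 CPM. There Fzd1 itself stood at 1643 and 2122 CPM without DOX and at 34.1, 37.4 and 34.6 CPM with it, so the drug and the loss of ectopic Fzd1 cannot be told apart in that line. Obp1b measured 338 and 180 CPM in its 2 libraries without DOX at P14 and 287, 676 and 304 CPM in its 3 with DOX. Mup5 measured 193 and 42.4 CPM without DOX and 68.6, 200 and 168 CPM with it. Both genes overlapped between those groups and lay above the DOX libraries of the control line. Tsc22d3 measured 64.9 and 59.9 CPM against 43.8, 49.3 and 36.3 CPM, and Mt2 measured 84.1 and 96.4 CPM against 68.1, 83.7 and 73.9 CPM, both lower with DOX without overlap. Btg2 measured 61.6 and 50.2 CPM against 51.4, 62.5 and 38.9 CPM. Whether the drug contrast differs between the lines was not tested. In the Fzd1-lacZ line at P14, which had no DOX, Obp1b measured 202, 45.2 and 57.7 CPM, Mup5 160, 17.7 and 34.4 CPM, and Tsc22d3 30.9, 49.3 and 41.9 CPM. Against the control DOX libraries, Obp1b (48.4 to 72.6 CPM there) and Tsc22d3 (32.0 to 39.3 CPM) overlapped, though 1 Obp1b value, 202 CPM, lay above. Mup5 stood above those libraries and Mt2, at 81.4, 124.6 and 113.8 CPM, did too. Crisp1 without DOX measured 4.30 and 6.72 CPM in the ectopic Fzd1 line and 13.9, 3.05 and 7.68 CPM in the Fzd1-lacZ line. In the control DOX libraries Crisp1 stood at 5.23 to 6.71 CPM. Gm20417 without DOX measured 2.649 and 18.98 CPM in the ectopic Fzd1 line and 3.048, 2.034 and 1.835 CPM in the Fzd1-lacZ line. Differences between the lines in these genes were not tested.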

How the data were processed

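Total RNA of olfactory epithelium was sequenced from ribosomal-RNA-depleted stranded libraries, per the labels' protocols. The tables used are those deposited by the authors: whole-number read counts per gene, and TPM values, which are scaled for gene length and depth. The submitters' processing notes name bcl2fastq 2.18, STAR 2.6.1c, RSEM and the mm10 build, with no roles; the annotation and strand setting are not given in the sources used here. Of 54532 gene identifiers, 54495 matched GENCODE M21, which gave positions; RefSeq gave upstream sequences. Rows of reads outside genes (unmapped, multimapping, without feature or ambiguous) held 70.0% to 77.3% of reads in the 6 libraries and were left out of library sizes. No column belongs to a sample outside the series (0 left out).

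Counts were fitted with edgeR 4.0.16 in R 4.3.3 (filterByExpr, TMM, quasi-likelihood F test) with 1 term per group over all 72 libraries, whose 25 groups share the estimate of spread, and p-values were adjusted by Benjamini-Hochberg over the 22144 genes tested (threshold 0.05). Gene counts per library set the precision. CPM uses TMM-scaled library sizes, a fold change is on the log2 scale, and SE is the fold change divided by the root of F. Shares were compared by exact permutation tests over libraries. Lists are described by counts and medians. Named genes were the 15 largest rises and falls among called genes with a mean log2 CPM above 0, separated groups and an established symbol, up to 4 called members per list, and Omp and Fzd1. The members and lists were chosen with earlier results of these data known. Alternatives were DESeq2 1.42.0, its size factors, limma 3.58.1 on log2 TPM with a pseudocount of 1 or 0.1, other filters, the share of Gm10800-type predicted genes, the fitted groups, and leaving out each library. The fits were tested on simulated data. Replicates differed by more than sampling noise (chi-square per degree of freedom 2.86 to 10.0). Labels give no batch or date. The library titles carry unexplained running numbers, which are consecutive within each group compared at P14 and separate between the groups. Anything that follows those runs cannot be told apart from the drug.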

Additional observations from a re-analysis of the deposited data

Results flagged for a closer look

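Omp met the test for a difference between the drug contrasts of 2 ages in the control line. Its log2 fold change with DOX was -0.12 at P14 and 4.09 at P10, a difference of -4.21 (SE 0.50, edgeR adjusted p = 2.27e-07). The change in CPM lay in the libraries without DOX, at 46.9 to 61.1 at P10 and 1329 to 1514 at P14, while those with DOX stood at 865 to 890 and at 1072 to 1444. Omp was higher with DOX in 3 of 3 libraries at P10. What sets the P10 level without DOX was not tested.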

How the results depend on the processing

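No setting reversed a named gene that was called; all 12 kept their sign in 15 of 15 settings, and Fzd1, which was not called, in 11. The P14 count of 12 was 69 with no filter on low counts, 79 when only the compared libraries were fitted and 3 with limma on log2 TPM at either pseudocount; DESeq2 gave 17, of which 11 were shared, and leaving out 1 library gave 5 to 10. The P10 count of 11 was 91 with no filter, 411 with only the compared libraries and 21 with DESeq2, and 5 to 11 when leaving out 1 library. The P3, P7 and P10 count of 491 was 839 with DESeq2 size factors, 224 without Gm10800-type genes, 1983 with only the compared libraries, 1093 with DESeq2, 43 and 25 with limma (pseudocounts of 1 and 0.1), and 95 to 452 when leaving out 1 library. The single gene that differed between P14 and P10 became 53 with no filter, 185 with only the compared libraries, 6 with DESeq2 and 2 with limma at either pseudocount, and 1 to 2 when leaving out 1 library. List members called, 4 in all, were 9 with DESeq2 and 1 and 0 with limma. Differences in a family's share (DOX minus none, percentage points) moved in percent of TPM from -0.102 to -0.036 for mitochondrially encoded proteins, from 4.66 to 8.55 for Gm10800-type genes, from -1.25 to -0.67 for secretory proteins, from -0.290 to -0.0998 for epithelial defence, from -0.0154 to -0.0032 for horizontal basal cells and from -0.0199 to -0.0138 for glucocorticoid-responsive genes. The fit with no filter gave Mup5 an adjusted p of 8.80e-160, against 1.20e-07 to 0.0601 in the other settings, so its counts are out of scale with theirs. The cause of these moves was not tested, apart from the changed number of genes or libraries that a filter or a smaller fit has by construction. No paired analysis was possible because the labels give no replicate numbers, and those used here follow accession order. At this depth and with 3 libraries a group, a difference in a gene that was not called is not shown to be absent.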
